A study of Mus musculus with 12 samples.

Results

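Ccr1, Ccr2, Ccr6, Ccr7, Cx3cr1, Cxcr4 and Ackr3 are the chemokine receptor genes described here in dendritic cells (DCs) of the mouse small intestine. The 7 genes were taken as a named list, and each symbol matched 1 Ensembl gene identifier among the 53801 in the count files. All 7 were among the 20580 genes that reached 5 counts in 1 or more of 12 samples and were tested. CD103+CD11b- and CD103-CD11b+ DCs were sorted from the gut of wild type (WT) mice and of mice with a conditional deletion of Cbfb (Cbfb-cKO, here cKO), 3 samples for each of 4 groups. In the study, gut DCs were cells that carried CD45, CD11c and MHC-II but no CD64. The cKO mice carried floxed Cbfb alleles (CbfbF/F) and a CD11c-Cre transgene, all mice were of mixed background, and no treatment was given in the labels. The CD11c promoter drives Cre in CD11c-expressing cells, so the deletion was not limited to one of these subsets. The samples of a group came from different mice. An age for the sequenced mice was not stated apart from that of the mice of the other DC analyses, and whether the WT mice carried Cre, and whether samples with the same number came from the same mouse, were not given in the sources used here.

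Chemokine receptors are surface proteins that cross the membrane several times and, in most cases, pass the signal of a bound chemokine to G proteins of the Gi class, which steer cell movement. In the intestine, Ccr7 takes DCs from the tissue into the lymph and on to the draining lymph node, while Ccr6, Ccr2 and Cx3cr1 are known for placing or keeping myeloid cells in the tissue. Ackr3 is an atypical receptor that binds the Cxcr4 ligand Cxcl12 and removes it without G protein signalling. Cbfb encodes Cbfβ, the shared partner of the Runx transcription factors.

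Gene counts summed to 2161929 in the shallowest and 5863484 in the deepest sample, or 32.7% to 38.8% of all reads in the count files. A gene with 3 counts stood at 0.485 to 1.53 CPM (counts scaled by library size and TMM factor), depending on the sample, and such limits cover counting error only. Cbfb itself was at 161 to 228 CPM in the 6 WT samples and at 170 to 290 CPM in the 6 samples labelled cKO, with a log2 difference of 0.17 in CD103+CD11b- and 0.14 in CD103-CD11b+ DCs. Counts over the whole gene therefore did not check the genotype labels. The markers used for the sort followed the subset labels, in that Itgae (CD103) ran from 616 to 899 CPM in CD103+CD11b- and from 30.6 to 281 CPM in CD103-CD11b+ samples, and Itgam (CD11b) from 3.66 to 11 against 77.9 to 222 CPM. Replicate 3 of the cKO CD103-CD11b+ DCs had the fewest counts and stood apart within its group, with the highest levels of Ccr1, Ccr2, Ccr7 and Cxcr4 and the lowest of Ccr6, Cx3cr1 and Ackr3. Replicate 1 of that group had the most RNA of B cell markers.

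Per kilobase of exon, Ccr7 and Cxcr4 were the most abundant of the 7 transcripts in CD103+CD11b- DCs of either genotype. In WT CD103+CD11b- DCs, the level was 81.9 ± 22.7 CPM per kb for Ccr7 and 77.1 ± 4.09 for Cxcr4 (SD, n = 3), and the ranges of the pair overlapped. Ccr1 came next with 27.5 ± 4.81 CPM per kb (SD, n = 3), clear of the genes on either side of it. In cKO CD103+CD11b- DCs, Ccr7 was at 128 ± 40.3 CPM per kb and Cxcr4 at 45.5 ± 12.3 (SD, n = 3), with no overlap between them. Ccr1 was there at 1.10 ± 0.896 CPM per kb (SD, n = 3), among the low receptors Ackr3, Ccr6 and Cx3cr1, whose ranges overlapped its own.

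In CD103-CD11b+ DCs, Cxcr4 had the highest mean per kilobase, with 112 ± 45.9 CPM per kb in WT and 183 ± 95.1 in cKO (SD, n = 3), and its range overlapped that of Ccr7 in both genotypes. In WT, Ccr1 at 52.4 ± 6.48 and Ccr7 at 48.0 ± 31.4 CPM per kb (SD, n = 3) could not be told apart by their ranges. In cKO, Ccr7 at 147 ± 53.3 CPM per kb (SD, n = 3) was above Ccr1 at 57.2 ± 32.9 (SD, n = 3) in every sample. Cx3cr1 had the lowest mean per kilobase in all 4 groups, from 0.374 to 3.65 CPM per kb, with ranges that overlapped those of the next gene in every group but WT CD103+CD11b-.

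**Figure D1:**
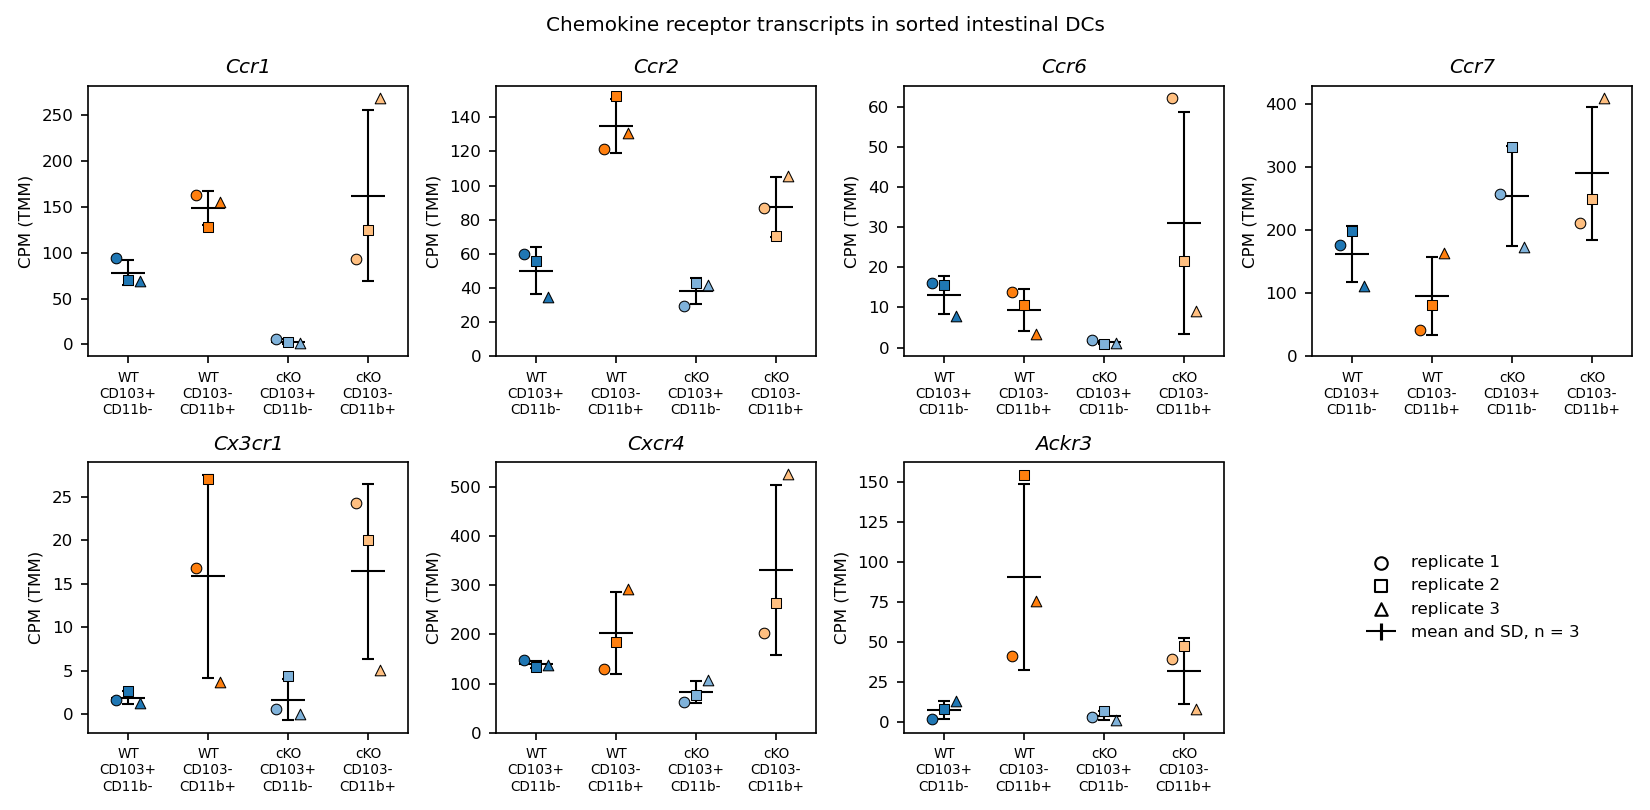
Level of each receptor (CPM after TMM scaling, linear axes) in the 12 samples, with 1 point per sample shaped by replicate number and a bar at the mean ± SD (n = 3) of each group. Ccr1 is at 69.5 to 93.7 CPM in WT CD103+CD11b- DCs and at 1.17 to 5.99 CPM in cKO CD103+CD11b- DCs, while Ccr7 samples of the 4 groups overlap along the order of the means.

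Among the 7 receptors, calls were more common between subsets than between genotypes, and those between subsets lay in one direction. Over all 20580 genes, subset calls were also more common, at 3860 in WT and 3307 in cKO mice. Genotype calls were 210 in CD103+CD11b- and 331 in CD103-CD11b+ DCs. In WT mice Ccr6 and Ccr7 were lower in CD103-CD11b+ DCs without a call (log2 differences -0.47 and -0.77). In WT mice, 2 of 7 were called higher in CD103-CD11b+ than in CD103+CD11b- DCs, Ccr2 and Ackr3, against 11.8% of all genes tested, and 0 of 7 were called lower, against 7%. In cKO mice, 6 of 7 were called higher in CD103-CD11b+ DCs, all but Ccr7, against 9.26% of all genes, and 0 of 7 were called lower, against 6.81%. A call needed a fold change over 1.3 and a false discovery rate (FDR) under 0.05, which is the p of edgeR's quasi-likelihood test adjusted over all tested genes by Benjamini-Hochberg. The median log2 difference over the 7 was 0.93 in WT and 3.03 in cKO mice, beside 0.07 and 0.11 over all tested genes. Samples of the subsets did not overlap for 4 of 7 receptors in WT, against 38.1% of all genes tested, and for 6 of 7 in cKO mice, against 34%. At an unadjusted p under 0.05, the counts were 4 in WT, against 34.3%, and 6 in cKO mice, against 31.9%.

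The genotype difference was called for 1 receptor in 1 subset. In CD103+CD11b- DCs, 1 of 7 was lower in cKO than in WT samples, Ccr1, against 0.797% of all genes, and 0 of 7 were higher, against 0.224%. In CD103-CD11b+ DCs, 0 of 7 were higher, against 1.11%, and 0 of 7 lower, against 0.5%, by edgeR's quasi-likelihood test. At an unadjusted p under 0.05 there were 3 of 7 in that subset (Ccr2, Ccr6 and Ccr7), against 17.4% of all genes, and both DESeq2 and edgeR's likelihood ratio test called 1, Ccr7. Over all 20580 genes, these 2 fits called 1136 and 1054 there, against 331 by the quasi-likelihood test. Genotypes did not overlap for 3 of 7 receptors in CD103+CD11b- DCs (Ccr1, Ccr6 and Cxcr4), against 18.1% of all genes, and for 2 of 7 in CD103-CD11b+ DCs (Ccr2 and Ccr7), against 20.1%. The genotype difference itself differed between the subsets for 1 of 7, Ccr1, where the interaction of genotype and subset was positive, against 0.554% of all genes, and for 0 of 7 in the negative direction, against 0.0972%. The comparisons share samples, so their counts are not independent of each other.

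**Figure D2:**
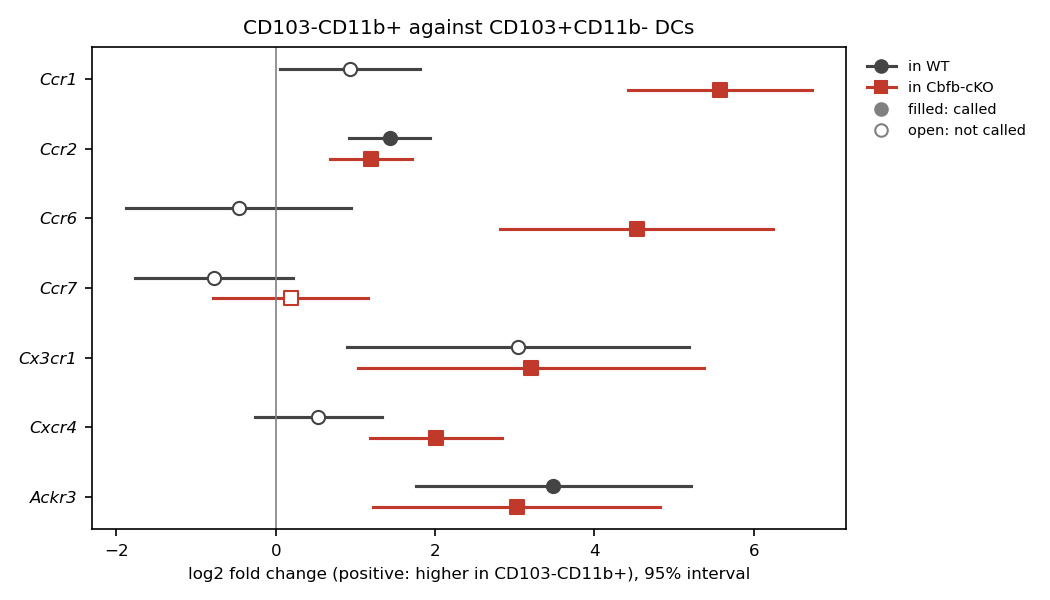
Log2 fold change of CD103-CD11b+ against CD103+CD11b- DCs for each receptor in WT (circles) and cKO (squares) mice, with the 95% interval of edgeR's quasi-likelihood fit and filled symbols for called differences. In cKO mice 6 of 7 receptors are called higher in CD103-CD11b+ DCs and in WT mice 2, while Ccr7 lies near 0 in cKO mice at 0.18.

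Ccr1, a receptor for inflammatory CC chemokines such as Ccl3, Ccl5 and Ccl9 on monocytes, neutrophils and other myeloid cells, showed the largest difference between genotypes among the 7. In CD103+CD11b- DCs, the WT samples were at 93.7, 70.7 and 69.5 CPM and the cKO samples at 5.99, 2.20 and 1.17 CPM, the last from 3 counts. Every cKO sample was far under every WT sample, and the cKO mean was 4.0% of the WT mean. The log2 fold change was -4.53 (standard error 0.51, 95% interval -5.65 to -3.40, adjusted p = 0.00375 by edgeR's quasi-likelihood test), which was 23.0-fold lower in cKO. Leaving out each of the 12 libraries in turn gave log2 fold changes from -5.43 to -4.22 with adjusted p from 0.00123 to 0.0264, so the call did not rest on 1 library, and the value of -5.43 came without cKO CD103+CD11b- replicate 1.

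In CD103-CD11b+ DCs, Ccr1 was at 162, 128 and 155 CPM in WT and at 93.6, 124 and 268 CPM in cKO samples. The cKO samples lay on both sides of the WT samples, and the log2 fold change was 0.12 (95% interval -0.76 to 0.99, adjusted p = 0.911). It became -0.45 with replicate 3 of these cKO samples left out. The genotype effect in CD103-CD11b+ minus that in CD103+CD11b- DCs was 4.64 on the log2 scale (standard error 0.64, 95% interval 3.23 to 6.06, adjusted p = 0.0130). Between the subsets, Ccr1 differed by 0.93 on the log2 scale in WT (adjusted p = 0.127, with samples that did not overlap). In edgeR's fit to the 6 WT samples alone the difference was 0.91 and was called (adjusted p = 0.0235). In cKO, Ccr1 was 47.7-fold higher in CD103-CD11b+ DCs (log2 fold change 5.58, adjusted p = 5.01e-05). Without cKO CD103+CD11b- replicate 1, this log2 fold change was 6.48 and the interaction 5.55, and both stayed called.

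Markers of other cells were read in the same CD103+CD11b- samples. The summed level of 6 markers of conventional type 2 DCs (cDC2) was 626, 460 and 366 CPM in WT and 127, 137 and 84.1 CPM in cKO samples, and 3 of the 6 were called lower, Sirpa, Irf4 and Cd209a. Each of these calls was near the threshold, being lost without any 1 of 9 libraries for Sirpa, 4 for Irf4 and 10 for Cd209a, with adjusted p up to 0.167, 0.113 and 0.175. The 6 markers of plasmacytoid DCs (pDC) summed to 1537, 1278 and 617 CPM in WT and 435, 536 and 214 CPM in cKO samples, with 0 of 6 called. The 10 macrophage markers summed to 65.3, 44.4 and 87.8 CPM in WT and 15.3, 72.5 and 16 CPM in cKO samples, with 0 of 10 called, and the 6 monocyte markers to 880, 677 and 498 against 335, 430 and 393 CPM, with 0 of 5 tested called. For the pDC, macrophage and monocyte lists, the unadjusted p was under 0.05 for 5 pDC, 1 macrophage and 2 monocyte markers, and DESeq2 called 2, 1 and 0. Over all 20580 genes in this comparison, 10.5% had such a p and DESeq2 called 652. The quasi-likelihood test called 0.797% of them lower and 0.224% higher. Itgam, which defines the other sorted subset, was not lower in cKO samples, being at 4.79, 3.66 and 4.53 CPM in WT and 5.99, 11 and 7.43 CPM in cKO samples. In WT mice the mean of CD103+CD11b- samples was 52.6% of that of CD103-CD11b+ samples for Ccr1 and 4.77% for Itgam. It was 64.0% for Sirpa, 53.5% for Irf4 and 27.7% for Cd209a. In CD103+CD11b- DCs the cKO mean of these last 3 was 14.6%, 29.3% and 13.4% of the WT mean. The 8 epithelial markers summed to 265, 220 and 113 CPM in WT and 43.9, 108 and 21.9 CPM in cKO samples, with 1 of 8 (Epcam) called lower, a call lost without any 1 of 8 libraries (adjusted p up to 0.197), while 5 of 8 had an unadjusted p under 0.05 and DESeq2 called 2. The cDC2, pDC, monocyte and epithelial sums did not overlap between genotypes, and the macrophage sums did. The study's gut DC definition asked for CD45, CD11c and MHC-II and left out cells with CD64. The part of cDC2, pDC, macrophage, monocyte or epithelial RNA in the Ccr1 difference was not tested. In such bulk samples, fewer cells that express a gene and less of its RNA per cell cannot be told apart, here and for every receptor.

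Ccr1 lies on chromosome 9 of GRCm38 (123962124 to 123968692, minus strand) in a cluster of chemokine receptor genes that also holds Ccr2 (124101950 to 124113557, plus strand). Runx factors bind DNA at TGTGGT or TGCGGT, so these letters were searched on both strands of 300-base promoters from RefSeq (GRCm38.p6), 250 bases before to 50 after a start site. Of 32851 mouse promoters, 22.4% held at least 1 of the pair, 16.8% TGTGGT and 6.45% TGCGGT. The 250 bases before the start are printed for Ccr1, the receptor called between genotypes, for its neighbour Ccr2, which was not called, and for the first promoter of Ccr6, the other receptor with a large difference in the same samples, with any match in capitals (ACCACA is TGTGGT read on the opposite strand).
Ccr1 (chr9:123968693-123968942, minus strand): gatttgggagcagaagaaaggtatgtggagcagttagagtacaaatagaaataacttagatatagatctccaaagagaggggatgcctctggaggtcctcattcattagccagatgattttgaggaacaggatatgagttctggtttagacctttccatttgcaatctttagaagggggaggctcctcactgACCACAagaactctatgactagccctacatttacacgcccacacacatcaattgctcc
Ccr2 (chr9:124101933-124102182, plus strand): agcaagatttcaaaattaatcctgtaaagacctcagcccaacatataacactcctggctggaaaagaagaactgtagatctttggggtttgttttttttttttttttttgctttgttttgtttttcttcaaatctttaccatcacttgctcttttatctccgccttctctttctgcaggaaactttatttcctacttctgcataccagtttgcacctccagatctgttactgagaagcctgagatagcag
Ccr6 (chr17:8235793-8236042, plus strand): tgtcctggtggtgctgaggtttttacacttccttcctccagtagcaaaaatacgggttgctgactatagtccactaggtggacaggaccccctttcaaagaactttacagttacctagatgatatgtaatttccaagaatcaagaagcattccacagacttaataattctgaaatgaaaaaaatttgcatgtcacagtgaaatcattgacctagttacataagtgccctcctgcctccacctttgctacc
The Ccr1 promoter held 1 match, TGTGGT on the opposite strand, with its first printed base 58 bases before the start. Ccr2 and Cxcr4 held none in this window, and Ccr7 was not searched. Most of the printed Ccr2 stretch lies inside the gene span given above. The Cx3cr1 stretch (120068297 to 120068546) lies inside the Cx3cr1 span of 119901616 to 120069879. For these genes the bases before the outermost annotated start were thus not fully searched. Ccr6 held 1 match in 1 of its 2 promoters, TGTGGT starting at base 31 after the start and so outside the printed stretch, Ackr3 held 1 TGTGGT at 84 bases before the start, and Cx3cr1 held TGTGGT at 54 and TGCGGT at 127 bases before the start. Receptors with and without a match were found among those not called between genotypes, and a match describes letters only, with no measurement of binding.

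Ccr2, the receptor for Ccl2 that brings monocytes and their descendants into tissue, differed between the subsets in both genotypes. It was at 60.2, 56.1 and 34.4 CPM in WT CD103+CD11b- and at 122, 152 and 131 CPM in WT CD103-CD11b+ DCs. In cKO mice it was at 29.5, 43.2 and 41.8 CPM in CD103+CD11b- and at 86.7, 70.4 and 106 CPM in CD103-CD11b+ DCs. CD103-CD11b+ samples were above all CD103+CD11b- samples of their genotype, by 1.43 on the log2 scale in WT (standard error 0.23, adjusted p = 0.00298) and by 1.20 in cKO mice (standard error 0.24, adjusted p = 0.00559). These calls held without any 1 library, with adjusted p up to 0.0157 in WT and 0.0288 in cKO mice.

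Between genotypes, the 3 cKO samples of CD103-CD11b+ DCs were all under the 3 WT samples for Ccr2, but the difference was not called (log2 fold change -0.63, 95% interval -1.13 to -0.12, adjusted p = 0.194 by edgeR's quasi-likelihood test). In CD103+CD11b- DCs the samples overlapped, with a log2 fold change of -0.39 (95% interval -0.91 to 0.12, adjusted p = 0.666). The interaction was -0.23 (95% interval -0.95 to 0.48, adjusted p = 0.900). Of the stretches of 50 bases in the longest Ccr2 transcript, 2.27% also occur in transcripts of other genes, and a read confined to such a stretch could not be assigned to 1 gene.

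Ccr6, the receptor for Ccl20 through which cells reach the lymphoid follicles and the epithelium above them, was low in cKO CD103+CD11b- DCs and variable in cKO CD103-CD11b+ DCs. The WT samples were at 16.1, 15.6 and 7.76 CPM in CD103+CD11b- and at 13.9, 10.7 and 3.49 CPM in CD103-CD11b+ DCs. The cKO samples were at 1.78, 0.976 and 1.17 CPM in CD103+CD11b- DCs, from 8, 4 and 3 counts, and at 62.2, 21.7 and 9.18 CPM in CD103-CD11b+ DCs. In WT mice the subsets overlapped (log2 fold change -0.47, adjusted p = 0.658), whereas in cKO mice every CD103-CD11b+ sample was above every CD103+CD11b- sample (log2 fold change 4.53, standard error 0.78, adjusted p = 0.00252). Without cKO CD103-CD11b+ replicate 1 it was 3.48, with adjusted p = 0.00688.

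The genotype difference of Ccr6 did not pass the threshold in either subset. In CD103+CD11b- DCs the log2 fold change was -3.26 (95% interval -4.95 to -1.58, adjusted p = 0.0814), with no overlap between the genotypes. With replicate 3 of cKO CD103-CD11b+ DCs left out, which enters the shared estimate of spread, it was -3.26 with adjusted p = 0.0466. In CD103-CD11b+ DCs it was 1.73 (95% interval 0.31 to 3.15, adjusted p = 0.201), and the samples overlapped. The interaction was 5.0 (95% interval 2.79 to 7.21, adjusted p = 0.0546), and 5.41 with adjusted p = 0.0311 without the same library. With each of the 12 libraries left out in turn it ran from 4.0, without cKO CD103-CD11b+ replicate 1, to 5.44, and adjusted p from 0.0311 to 0.161. Fits by DESeq2 and by edgeR's likelihood ratio test called Ccr6 in CD103+CD11b- DCs, with adjusted p of 0.00188 and 0.00315, and for the interaction, with adjusted p of 0.000239 and 0.000471.

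B cell markers were not level over the samples in which Ccr6 was highest. The 10 markers summed to 929, 452 and 508 CPM in cKO CD103-CD11b+ DCs, against 291, 469 and 320 CPM in WT CD103-CD11b+ DCs and 279 to 414 CPM in the 6 CD103+CD11b- samples. Ighm alone gave 160 to 427 CPM of these sums, and the other 9 markers summed to 526, 232 and 81.1 CPM in cKO and 117, 303 and 160 CPM in WT CD103-CD11b+ DCs, which overlapped, and to 28.9 to 66.9 CPM in CD103+CD11b- samples. Between the subsets in cKO mice, 4 of the 10 were called higher in CD103-CD11b+ DCs, against 9.26% of all genes. They were Cd79a, Cd79b, Cr2 and Ms4a1, of which Cd79b and Ms4a1 held without any 1 library. Between genotypes in CD103-CD11b+ DCs, 1 of 10 was called higher in cKO samples, Ms4a1, against 1.11% of all genes. It was at 7.44, 7.0 and 2.04 CPM in WT and 91.1, 84.5 and 43.3 CPM in cKO samples (log2 fold change 3.72, adjusted p = 0.00455). Pax5, a transcription factor of the B lineage, was at 60.8, 14 and 0 CPM in replicates 1, 2 and 3 of the cKO CD103-CD11b+ DCs. In replicate 3, 2 of the 10 markers were at 0, Pax5 one of them. With replicate 1 of that group left out, the genotype difference of Ccr6 in that subset was 0.74 on the log2 scale. The part of B cell RNA in the values of Ccr6 was not tested.

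**Figure D3:**
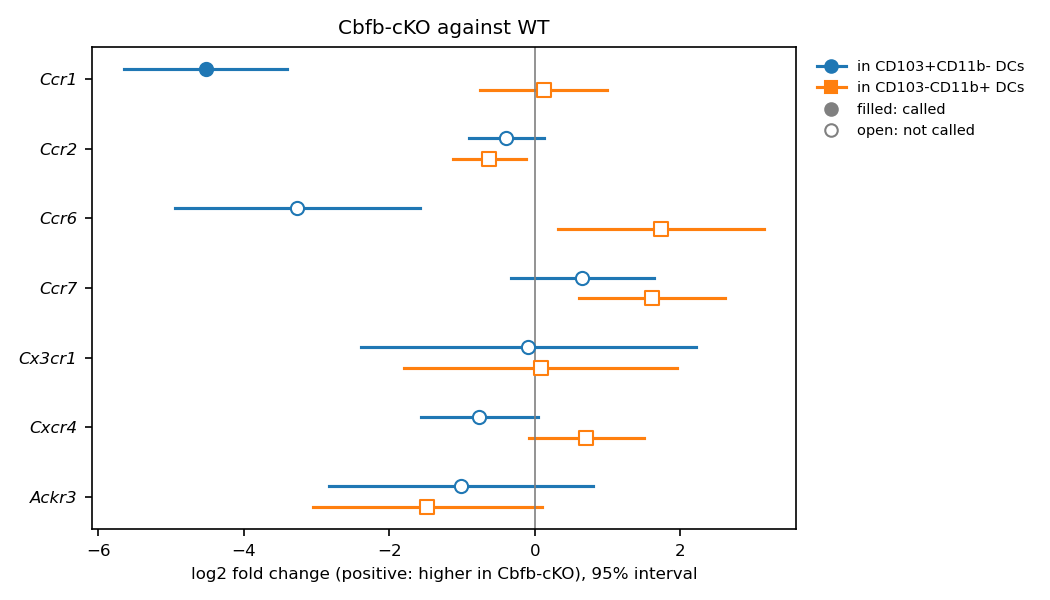
Log2 fold change of cKO against WT for each receptor in CD103+CD11b- (circles) and CD103-CD11b+ (squares) DCs, with the 95% interval of edgeR's quasi-likelihood fit and filled symbols for called differences. Ccr1 in CD103+CD11b- DCs, at -4.53, is the 1 called difference, and Ccr6 points down in that subset at -3.26 and up in the other at 1.73 without a call in either.

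Ccr7, the receptor for Ccl19 and Ccl21 that leads mature DCs to the lymph node, was the 1 receptor that was not called between the subsets in either genotype. WT samples were at 176, 198 and 112 CPM in CD103+CD11b- and at 41.1, 81.0 and 163 CPM in CD103-CD11b+ DCs. The cKO samples were at 258, 332 and 172 CPM in CD103+CD11b- and at 211, 249 and 409 CPM in CD103-CD11b+ DCs. Replicate 3 of the WT CD103-CD11b+ DCs reached the range of the other subset, while the other two were under it. The log2 difference between subsets was -0.77 in WT (95% interval -1.76 to 0.21, adjusted p = 0.253) and 0.18 in cKO mice (95% interval -0.79 to 1.16, adjusted p = 0.815). Without that replicate 3 the WT difference was -1.47, with adjusted p = 0.0445.

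All 3 cKO samples of CD103-CD11b+ DCs were above all 3 WT samples for Ccr7. The log2 fold change was 1.61 (standard error 0.46, 95% interval 0.61 to 2.61), but adjusted p = 0.104 by edgeR's quasi-likelihood test left it uncalled. With replicate 3 of WT CD103-CD11b+ DCs left out it was 2.28 with adjusted p = 0.0491, and DESeq2 and edgeR's likelihood ratio test gave adjusted p of 0.0109 and 0.0193 with all samples. In CD103+CD11b- DCs the genotypes overlapped, with a log2 fold change of 0.65 (95% interval -0.33 to 1.63, adjusted p = 0.740). The interaction was 0.96 (95% interval -0.43 to 2.34, adjusted p = 0.666), so a difference of the genotype effect between the subsets was not shown.

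Genes that rise as DCs mature for migration were listed beside Ccr7. Of the 12 on the list, 0 were called between genotypes in either subset by edgeR's quasi-likelihood test, with an unadjusted p under 0.05 for 2 in CD103+CD11b- and 6 in CD103-CD11b+ DCs, and DESeq2 called 1 and 5. Over all 20580 genes, 10.5% and 17.4% had such a p, and DESeq2 called 652 and 1136. Between subsets 1 was higher (Socs2) in WT CD103-CD11b+ DCs, against 11.8% of all genes, and 1 lower (Cacnb3), against 7%. In cKO CD103-CD11b+ DCs 1 was higher (Samsn1), against 9.26%. These calls were near the threshold. Socs2 was lost without any 1 of the 3 WT CD103+CD11b- samples or replicates 2 or 3 of WT CD103-CD11b+ DCs (adjusted p up to 0.102). Cacnb3 was lost without replicates 1 or 2 of WT CD103+CD11b-, 1 or 3 of WT CD103-CD11b+ or 1 of cKO CD103+CD11b- DCs (adjusted p up to 0.130), and its log2 fold change went from -2.15 to -2.92 without replicate 2 of WT CD103-CD11b+ DCs. Samsn1 was lost without cKO CD103+CD11b- replicate 1 (adjusted p = 0.0549). With the replicate number as a block, in cKO mice, where the numbers paired the samples, 3 were called, Samsn1 (log2 fold change 1.38, adjusted p = 0.0194) and Socs2 (1.68, adjusted p = 0.0155) higher and Cacnb3 (-0.79, adjusted p = 0.0325) lower. Their median log2 fold change in cKO against WT CD103-CD11b+ DCs was 0.68, beside -0.06 over all tested genes. Cacnb3, a calcium channel subunit, was at 14.7, 34.0 and 6.98 CPM in WT and at 72.7, 99.5 and 55.1 CPM in cKO samples of that subset, with no overlap and adjusted p = 0.130. Fscn1, the actin-bundling protein of migrating DCs, was at 67.5, 138 and 16 CPM in WT and 166, 176 and 104 CPM in cKO samples there, which overlapped.

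Cx3cr1, the receptor for the membrane-bound chemokine Cx3cl1 and a hallmark of intestinal macrophages, had the lowest mean per kilobase of the 7 in each group. It was at 1.71, 2.75 and 1.29 CPM in WT CD103+CD11b- DCs and at 16.8, 27.0 and 3.78 CPM in WT CD103-CD11b+ DCs. The cKO samples were at 0.666, 4.39 and 0 CPM in CD103+CD11b- DCs, where the count of 0 in replicate 3 allows up to 1.17 CPM, and at 24.2, 20.0 and 5.10 CPM in CD103-CD11b+ DCs. The CD103-CD11b+ samples were above the CD103+CD11b- samples in both genotypes, and replicate 3 was the lowest of its group in each. The log2 difference was 3.04 in WT (95% interval 0.89 to 5.18, adjusted p = 0.0508, not called) and 3.20 in cKO mice (95% interval 1.03 to 5.38, adjusted p = 0.0484, called).

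These calls of Cx3cr1 lay at the threshold. The cKO call was lost, with adjusted p from 0.0525 to 0.159, without any 1 of the 3 WT CD103+CD11b- samples, replicate 1 of WT CD103-CD11b+, replicates 1 or 3 of cKO CD103+CD11b- or replicates 1 or 2 of cKO CD103-CD11b+ DCs. Without replicate 2 of cKO CD103+CD11b- DCs the cKO difference was 5.26 on the log2 scale and stayed called. It was not called with library size alone as the scaling (adjusted p = 0.0511) or in a fit to its 6 samples (adjusted p = 0.0768), and was called without a filter (0.0272), with filterByExpr (0.0419), with RLE scaling (0.0482), with DESeq2 (0.00694), with the likelihood ratio test (0.0107) and with the replicate block (0.00524) or that within genotype (0.00976). The WT difference was called in the fit to its 6 samples (adjusted p = 0.0417), without a filter (0.0304), with edgeR's filterByExpr (0.0456), with RLE scaling (0.0481), with DESeq2 (0.00980), with the likelihood ratio test (0.0147) and with a replicate block (0.0139) or one within genotype (0.0158), but not with library size alone (0.0570). It was 2.40 with adjusted p = 0.153 without replicate 2 of WT CD103-CD11b+ DCs, the highest adjusted p with 1 library left out. It was also called, with adjusted p from 0.0333 to 0.0387, without replicate 3 of WT CD103-CD11b+, replicates 2 or 3 of cKO CD103+CD11b- or replicate 3 of cKO CD103-CD11b+ DCs. Between genotypes, CD103+CD11b- DCs had a log2 fold change of -0.09 (95% interval -2.40 to 2.22, adjusted p = 1) and CD103-CD11b+ DCs one of 0.08 (95% interval -1.80 to 1.96, adjusted p = 0.983), intervals that leave room for large changes in both directions. The interaction was 0.17 (95% interval -2.81 to 3.14, adjusted p = 1.0).

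Macrophage markers followed the same split as Cx3cr1. The 10 markers summed to 505, 712 and 377 CPM in WT and 544, 772 and 494 CPM in cKO CD103-CD11b+ DCs, against 15.3 to 87.8 CPM in the 6 CD103+CD11b- samples. Of the 10, 8 were called higher in CD103-CD11b+ DCs in WT and 7 in cKO mice, against 11.8% and 9.26% of all genes. In each genotype 5 of these calls held without any 1 library. C1qa was at 28.4, 37.6 and 14.8 CPM in WT and 25.4, 34.7 and 14.8 CPM in cKO CD103-CD11b+ samples, so that replicate 3 was again the lowest. Fcgr1, which encodes the CD64 that the study gated out of its intestinal DCs, was at 4.94 to 11.7 CPM in the same 6 samples. In cKO CD103-CD11b+ samples it was at 5.39, 8.33 and 5.61 CPM. The part of macrophage RNA in the Cx3cr1 difference was not tested. The Cx3cr1 gene model (chromosome 9, 119901616 to 120069879) spans 9 other genes, of which 1 antisense gene shares 78 exon bases, 1.73% of the Cx3cr1 exons, and reads were counted without regard to strand.

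**Figure D4:**
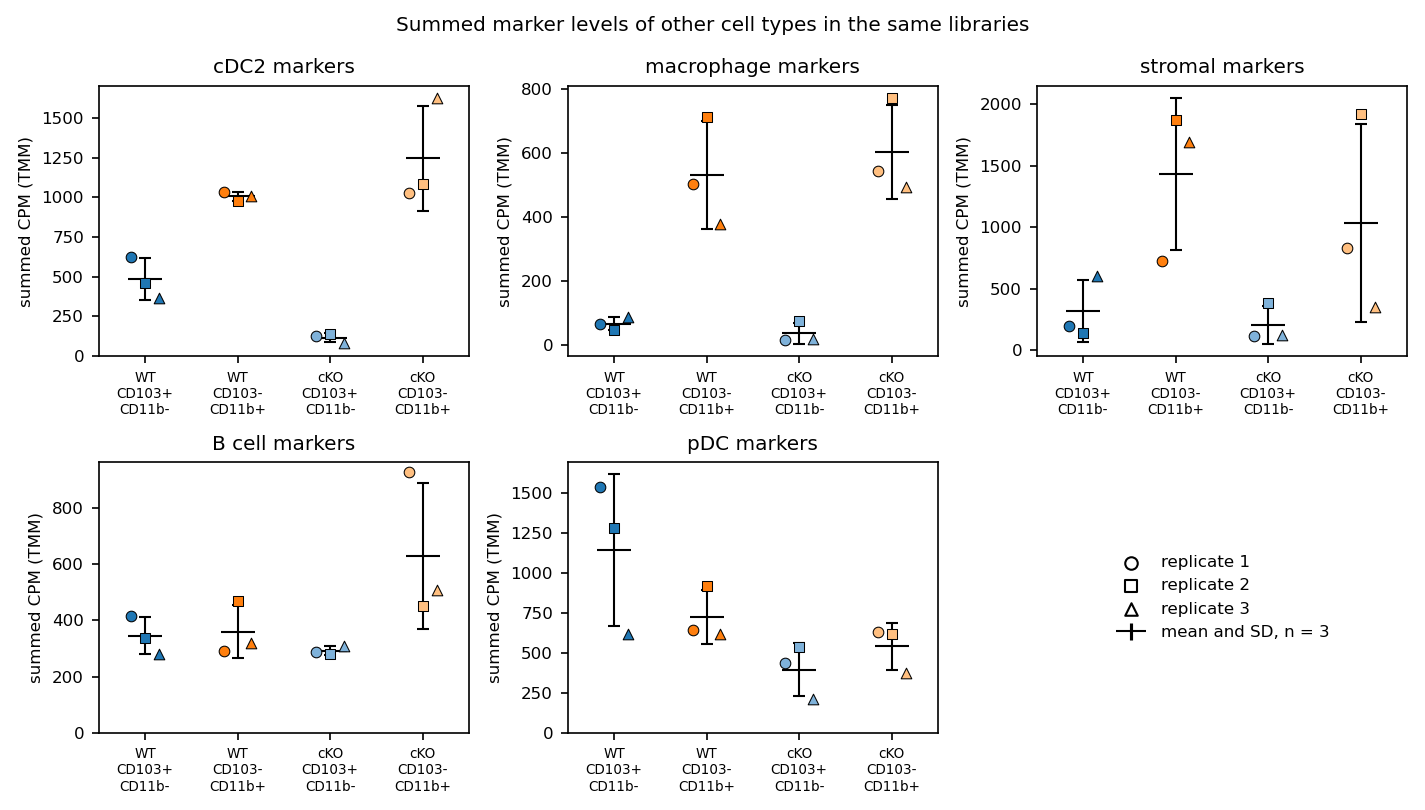
Summed CPM of the markers of 5 cell types in each of the 12 samples, with 1 point per sample shaped by replicate number and a bar at the mean ± SD (n = 3). The cDC2 and pDC sums are lower in cKO than in WT CD103+CD11b- DCs, stromal and macrophage sums are highest in CD103-CD11b+ DCs, and the B cell sum is highest, at 929 CPM, in replicate 1 of the cKO CD103-CD11b+ DCs.

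Cxcr4, which holds leukocytes near sources of Cxcl12, was well expressed in every sample, with at least 272 counts. It was at 148, 134 and 137 CPM in WT CD103+CD11b- and at 130, 184 and 293 CPM in WT CD103-CD11b+ DCs. In cKO mice it was at 62.8, 77.4 and 106 CPM in CD103+CD11b- and at 202, 264 and 526 CPM in CD103-CD11b+ DCs. The subsets overlapped in WT (log2 fold change 0.54, adjusted p = 0.329) and were apart in cKO mice, where CD103-CD11b+ DCs were 4.03-fold higher (log2 fold change 2.01, standard error 0.37, adjusted p = 0.00414). This call held without any 1 library, with log2 fold changes from 1.51 to 2.23.

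Between genotypes, all cKO samples of CD103+CD11b- DCs were under all WT samples for Cxcr4, with a log2 fold change of -0.77 (95% interval -1.57 to 0.04, adjusted p = 0.513). In CD103-CD11b+ DCs the samples overlapped, with a log2 fold change of 0.71 (95% interval -0.09 to 1.5, adjusted p = 0.337), and of 0.21 with replicate 3 of these cKO samples left out. The interaction was 1.47 (95% interval 0.34 to 2.60, adjusted p = 0.292). The difference between the subsets was thus called in cKO but not in WT mice, while the test of whether it differed between the genotypes did not pass the threshold.

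Ackr3, the scavenger of Cxcl12 and Cxcl11, was higher in CD103-CD11b+ DCs of both genotypes. It was at 2.05, 7.78 and 13.3 CPM in WT CD103+CD11b- and at 41.3, 155 and 75.3 CPM in WT CD103-CD11b+ DCs. In cKO mice it was at 3.33, 6.83 and 1.17 CPM in CD103+CD11b- and at 39.5, 47.6 and 8.16 CPM in CD103-CD11b+ DCs. The subsets did not overlap in either genotype, and CD103-CD11b+ DCs were 11.2-fold higher in WT (log2 fold change 3.48, standard error 0.78, adjusted p = 0.0135) and 8.14-fold higher in cKO mice (log2 fold change 3.03, standard error 0.82, adjusted p = 0.0282).

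The WT call of Ackr3 was lost without replicate 2 of the WT CD103+CD11b- DCs, with adjusted p = 0.0574, and the log2 fold change was 2.83, still called, without replicate 2 of the WT CD103-CD11b+ DCs. The cKO call was lost without replicates 1 or 3 of the CD103+CD11b- DCs, with adjusted p of 0.105 and 0.0917, and without replicates 1 or 2 of the CD103-CD11b+ DCs, with adjusted p of 0.0702 and 0.0859, and without replicate 2 of the CD103+CD11b- DCs the log2 fold change was 3.72, still called. Between genotypes, CD103+CD11b- DCs had a log2 fold change of -1.02 (95% interval -2.83 to 0.80, adjusted p = 0.798) and CD103-CD11b+ DCs one of -1.48 (95% interval -3.05 to 0.09, adjusted p = 0.313), and the samples overlapped in both. With 1 library left out, the former ran from -1.72 (without cKO CD103+CD11b- replicate 2) to -0.38 (without WT CD103+CD11b- replicate 3) and the latter from -1.87 to -0.84 (without WT CD103-CD11b+ replicate 2), none of them called. The interaction was -0.46 (95% interval -2.88 to 1.96, adjusted p = 0.959).

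Stromal markers, which include collagens of fibroblasts and Pecam1 of endothelium, ran beside Ackr3. The 8 markers summed to 722, 1873 and 1692 CPM in WT CD103-CD11b+ DCs, and to 831, 1923 and 350 CPM in cKO CD103-CD11b+ DCs, where replicate 3 was lowest for the markers and for Ackr3. They summed to 196, 141 and 604 CPM in WT CD103+CD11b- and to 111, 383 and 118 CPM in cKO CD103+CD11b- DCs, and the highest Ackr3 sample of each of these groups was also the highest for the markers. Of the 8, 1 (Pecam1) was called higher in CD103-CD11b+ DCs in WT and 2 (Pdgfra and Pecam1) in cKO mice, against 11.8% and 9.26% of all genes. In cKO mice the call of Pdgfra was lost without replicates 1 or 3 of CD103+CD11b- or 2 of CD103-CD11b+ DCs (adjusted p up to 0.0880). The study took only CD45+ cells as gut DCs. The part of stromal RNA in the Ackr3 difference was not tested.

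Ligands of 6 of the receptors were measured in the same samples, with 13 on the list, 11 matched to 1 gene each and 10 tested, while Ccl19 and Ccl21a, the ligands of Ccr7 on the list, did not match 1 gene each. In WT mice 5 of 10 were called higher in CD103-CD11b+ DCs, Ccl2, Ccl6, Ccl9, Cx3cl1 and Cxcl12, and in cKO mice 3 of 10, Ccl3, Ccl6 and Ccl9, with 0 of 10 lower in either. Over all genes tested, 11.8% in WT and 9.26% in cKO mice were called higher, and 7% and 6.81% lower. The WT call was lost for Cxcl12 without any 1 of 6 libraries (adjusted p up to 0.116) and for Cx3cl1 without any 1 of 3 (adjusted p up to 0.0687), the WT CD103+CD11b- replicates 1 and 2 among both, without either of which 3 of 10 were called, and the cKO calls held without any 1 library. Cxcl12, the ligand of Cxcr4 and Ackr3, was at 102, 237 and 73.3 CPM in WT and 62.6, 106 and 12.2 CPM in cKO CD103-CD11b+ DCs, against 1.71, 0.915 and 29.6 CPM in WT and 5.55, 6.83 and 13.3 CPM in cKO CD103+CD11b- DCs. It is a product of stromal cells, and its sample with the most CPM in each CD103-CD11b+ group was also the one with the highest stromal sum, as in WT CD103+CD11b- DCs, but not in cKO CD103+CD11b- DCs, where Cxcl12 was highest in replicate 3 and the stromal sum in replicate 2. Ccl2, the ligand of Ccr2, was the 1 ligand called between genotypes, higher in cKO CD103+CD11b- DCs (4.22, 11 and 9.78 CPM) than in WT ones (1.03, 0.458 and 0 CPM, at most 3 counts each), with adjusted p = 0.0388. This call was lost without any 1 of 9 libraries, which were the 6 samples compared, replicate 2 of WT CD103-CD11b+ and replicates 1 and 2 of cKO CD103-CD11b+ DCs, with adjusted p from 0.0505 to 0.156, and when only those 6 were fitted (adjusted p = 0.0750). In CD103-CD11b+ DCs, 0 of 10 ligands were called between genotypes, 2 had an unadjusted p under 0.05, and DESeq2 and the likelihood ratio test each called 1. Over all 20580 genes, 17.4% had such a p there, and the 2 fits called 1136 and 1054. Ccl3, a ligand of Ccr1, was at 22.2, 17.8 and 28.6 CPM in WT and 3.33, 21.5 and 16 CPM in cKO CD103+CD11b- DCs, which overlapped. Ccl20, the ligand of Ccr6, was at 0.582 CPM or less in every sample.

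The other chemokine receptors, 17 listed and 15 tested, split both ways between the subsets. In WT mice 1 of 15 was called higher in CD103-CD11b+ DCs (Cxcr2), against 11.8% of all genes, and 3 lower (Ccr9, Cxcr3 and Xcr1), against 7%. In cKO mice Ccrl2, Cxcr2 and Cxcr5 were among those called higher and the same 3 were lower, where 9.26% and 6.81% of all genes were. In cKO mice the call of Cxcr2 was lost without replicate 1 of CD103+CD11b- or replicates 1 or 2 of CD103-CD11b+ DCs (adjusted p up to 0.0860). Between genotypes 0 of 15 were called in either subset, and 0 of 15 for the interaction, by edgeR's quasi-likelihood test. The unadjusted p was under 0.05 for 3 in CD103+CD11b- DCs, 7 in CD103-CD11b+ DCs and 5 for the interaction, and DESeq2 called 1, 3 and 1. Over all 20580 genes, the shares at that p were 10.5%, 17.4% and 11.1%, and DESeq2 called 652, 1136 and 506. Xcr1, the receptor that marks cross-presenting type 1 DCs, was at 472, 439 and 384 CPM in WT CD103+CD11b- and at 18.2, 4.0 and 30.2 CPM in WT CD103-CD11b+ DCs. Ccr9, the gut-homing receptor for Ccl25, was at 510, 433 and 275 CPM in WT and 221, 222 and 181 CPM in cKO CD103+CD11b- DCs, with no overlap, a log2 fold change of -0.96 and adjusted p = 0.344. Ccrl2, an atypical receptor, was at 98.5, 76.2 and 133 CPM in WT and 31.3, 42.0 and 63.7 CPM in cKO CD103+CD11b- DCs, also without overlap (log2 fold change -1.18, adjusted p = 0.187).

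**Figure D5:**
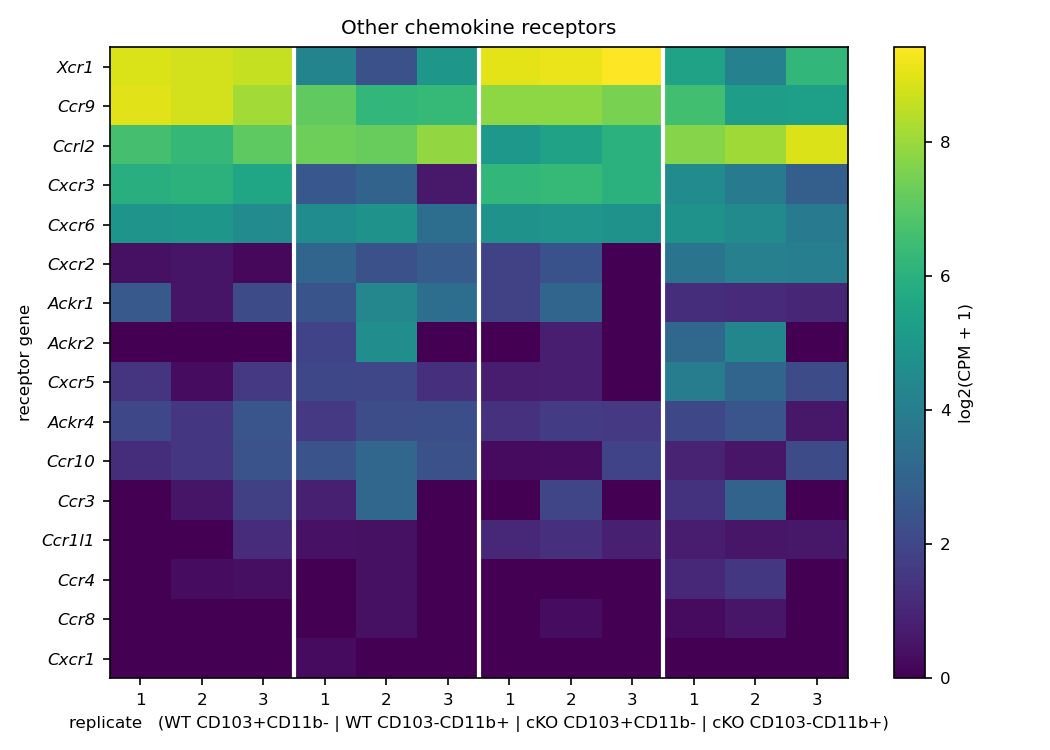
Levels of 16 other chemokine receptors as log2(CPM + 1) in the 12 samples, with genes ordered by mean level and white lines between the 4 groups. Xcr1, Ccr9 and Cxcr3 are brighter in CD103+CD11b- DCs of both genotypes, and Ccr4, Ccr8 and Cxcr1 are at the dark, low end of the scale in all samples.

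Of 26 genes that carry or end receptor signals, 0 were called between genotypes in either subset by edgeR's quasi-likelihood test, with an unadjusted p under 0.05 for 3 in CD103+CD11b- and 9 in CD103-CD11b+ DCs, and DESeq2 called 0 and 4. Over all 20580 genes, the shares at that p were 10.5% and 17.4%, and DESeq2 called 652 and 1136. Between subsets in WT mice, 0 of the 26 were higher in CD103-CD11b+ DCs, against 11.8% of all genes, and 4 lower, against 7%. These 4 were the Gi subunit Gnai3, the phospholipase Plcb2, the signal terminator Rgs10 and the exchange factor Vav1. In cKO mice 7 were higher, against 9.26% of all genes, and 3 were lower, against 6.81%. The 7 were the adaptor Arrb2, the receptor kinase Grk3, the terminators Rgs1 and Rgs18, and Elmo1, Prex1 and Ptk2b of the migration machinery. The 3 were Gnai3, Plcb2 and Rgs10. Of these calls, 3 of 4 in WT (all but Plcb2) and 6 of 10 in cKO mice (all but Arrb2, Gnai3, Plcb2 and Rgs10) held without any 1 library. The largest of these by level, Rgs1, was at 343, 395 and 587 CPM in cKO CD103+CD11b- and at 769, 838 and 1345 CPM in cKO CD103-CD11b+ DCs, a log2 difference of 1.15 (adjusted p = 0.00921).

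Over the 12 samples, the patterns of the 7 receptors were compared by the root mean square difference of log2 CPM after taking away each gene's mean, as a description with no test. The closest pair was Ccr2 and Cxcr4, at 0.618, and the most distant was Ccr1 and Ccr7, at 2.74. Among 9843 protein-coding genes with a mean of 10 CPM or more, the nearest to Ccr1 were Siglece, at 0.611, and Pilra, at 0.654, both genes of inhibitory or paired myeloid receptors. The nearest to Ccr2 were Sidt2 (0.304) and Ada (0.308), to Ccr6 Zfp831 (0.571) and Treml2 (0.643), and to Ccr7 Basp1 (0.456) and Hmgn3 (0.534). For Cx3cr1 they were Rab37 (0.488) and Pde7b (0.682), for Cxcr4 Lilrb4a (0.284) and Stk38l (0.308), and Thbd (0.443) was near Ackr3. With a prior count of 0.5 in place of 2, Mcemp1 came first for Ccr1 and Il1rl2 second for Cx3cr1, and the other places kept their genes.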

How the data were processed

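RNA of sorted CD103+CD11b- and CD103-CD11b+ intestinal DCs was sequenced by RamDA-seq, a full-length method for small cell numbers. The authors trimmed the reads, mapped them to mm10 with STAR 2.7, removed reads of low mapping quality and duplicates, and deposited raw counts per gene from htseq-count, without strand. No normalization was applied by the authors to the deposited counts.

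Samples were grouped by their labels. GENCODE M21 (GRCm38) gave symbols and positions and matched 99.8% of gene identifiers, and 5 summary lines per file were left out. Genes that reached 5 counts in 1 or more samples were tested with edgeR 4.0.16 (quasi-likelihood F-test, TMM, R 4.3.3, limma 3.58.1) in 1 model of the 4 groups, with Benjamini-Hochberg adjustment. Standard errors were taken as the log2 fold change over the root of F. The procedure was tested on simulated counts. Levels per kb used the merged exons. The 7 receptors and all lists (other receptors, ligands, signalling, maturation, cell type markers) were chosen with earlier results of these data known. Beside the 7, named genes were those called or highest in their list, and the 2 nearest in pattern; markers, Fscn1, Ccl20 and Ccrl2 between genotypes were added after the values were seen. Some genes that this rule would name are not reported here.

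Replicate numbers recur in all groups. Deviations from the group means of same-numbered samples correlated at r = 0.112 to 0.354 across genes between the subsets in cKO mice, where every pair was over 0.1, and at -0.0846 to 0.357 between the subsets in WT mice, -0.0911 to 0.132 between genotypes in CD103+CD11b- and 0.02 to 0.422 in CD103-CD11b+ DCs. Alternatives were other filters, RLE or no scaling factors, DESeq2 1.42.0, the likelihood ratio test, replicate blocks, 6-sample fits, other limits and leaving out each sample.

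Marker lists not described with a receptor were also counted. Of 6 DC markers 1 (Flt3) and of 8 markers of type 1 DCs 7 were called lower in CD103-CD11b+ DCs of both genotypes, and of the latter 1 (Itgae) was lower in cKO CD103-CD11b+ DCs. Of 7 T cell markers 0 were called in any comparison by edgeR's quasi-likelihood test or DESeq2, and 0 had an unadjusted p under 0.05, and of 8 epithelial markers 3 were called higher in CD103-CD11b+ DCs in WT and 1 in cKO mice, and 1 (Epcam) was lower in cKO CD103+CD11b- DCs. The calls of Flt3, Itgae between genotypes and all epithelial markers were each lost without at least 1 library, as was 1 of the 7 (Batf3) in either genotype. Over all genes, 11.8% were called higher and 7% lower in CD103-CD11b+ DCs in WT, and 9.26% and 6.81% in cKO mice. Between genotypes 0.797% were called lower in CD103+CD11b- and 0.5% in CD103-CD11b+ DCs.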

Additional observations from a re-analysis of the deposited data

Results flagged for a closer look

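The genotype effect on Ccr1 differed between the subsets by a test of the difference itself. The fall in cKO CD103+CD11b- DCs had no counterpart of that size in CD103-CD11b+ DCs, and the interaction was 4.64 on the log2 scale (adjusted p = 0.0130, edgeR's quasi-likelihood test over all tested genes). No group had more than 3 samples, so no single sample was tested for lying far from its group.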

How the results depend on the processing

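No value of the 7 receptors turned its sign unless a library was left out. Cx3cr1 between the subsets in WT mice, not called, was called in 8 alternatives that left out no library. In WT mice, the subset comparison gave 2 calls, but 1 with 5 counts in every sample (4 receptors were then not tested, Ccr1, Ccr6, Cx3cr1 and Ackr3), 4 in the fit to its 6 samples (with Ccr1 and Cx3cr1) and 1 at an FDR under 0.01, and 1 to 4 with single libraries left out. Over all genes tested, calls were 3860 of 20580, 2576 of 11765 with 5 counts in every sample and 2644 of 19776 in the 6-sample fit. In cKO mice the subset comparison gave 6, but 2 with 5 counts in every sample, 5 in the fit to its 6 samples, 4 at an FDR under 0.01 and 4 to 6 with single libraries left out. All-gene calls there were 3307 of 20580, 2833 of 11765 with 5 counts in every sample and 2804 of 19082 in the 6-sample fit. Between genotypes in CD103+CD11b- DCs, the 1 call became 2, with Ccr6, without a filter, with DESeq2, with the likelihood ratio test and in the 6-sample fit, 0 with 5 counts in every sample, and 1 to 2 with libraries left out. Calls over all 20580 genes went there from 210 to 652 with DESeq2 and 598 with the likelihood ratio test. They were 320 of 32529 without a filter, 205 of 18473 in the 6-sample fit and 220 of 11765 with 5 counts in every sample. In CD103-CD11b+ DCs, 0 calls became 1, Ccr7, with DESeq2 and the likelihood ratio test, and 0 to 1 with libraries left out. All-gene calls in that subset went from 331 to 1136 with DESeq2 and 1054 with the likelihood ratio test. For the interaction, 1 became 2, with Ccr6, without a filter and with DESeq2 and the likelihood ratio test, 0 with 5 counts in every sample and at an FDR under 0.01, and 1 to 2 with libraries left out. All-gene calls for it went from 134 to 506 with DESeq2 and 413 with the likelihood ratio test. They were 205 of 32529 without a filter and 136 of 11765 with 5 counts in every sample. The cause of these moves was not tested beyond the receptors that a filter removed.

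With a replicate block (the number 1 to 3 as a term), the calls were 2 between genotypes in CD103+CD11b- DCs (Ccr1, Ccr6), 1 in CD103-CD11b+ DCs (Ccr6, log2 fold change 1.59, adjusted p = 0.0448) and 2 for the interaction, which was also 2 with blocks within genotype. Over all genes tested, the block raised these calls from 210 to 522, from 331 to 849 and from 134 to 330. Blocks within genotype gave 328 for the interaction. Between the subsets in cKO mice, where calls over all genes tested went from 3307 to 4329, the block changed no call of the 7 receptors. It moved the calls of the maturation list from 1 to 3, of DC, monocyte and epithelial markers from 1 to 2 each, of pDC markers from 0 to 1, of macrophage markers and other receptors from 7 to 8 each, of cDC2 markers from 5 to 6 and of B cell markers from 4 to 3.

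With libraries left out, signs turned for values that were not called in any such fit. The ranges were -0.14 to 0.42 for Ccr7 between the subsets in cKO mice. They were -2.15 to 0.39 and -0.37 to 0.68 for Cx3cr1 between genotypes in CD103+CD11b- and CD103-CD11b+ DCs. Ccr1 between genotypes in CD103-CD11b+ DCs ran from -0.45 to 0.42. For the interaction, Ccr2 ran from -0.39 to 0.0021, Cx3cr1 from -0.31 to 2.23 and Ackr3 from -1.07 to 0.24. By the longest transcript in place of merged exons, Ccr2 in WT CD103-CD11b+ DCs was at 23.5 and Ccr6 in cKO CD103+CD11b- DCs at 0.745 CPM per kb. Counts were low for Ccr1, Ccr6, Cx3cr1 and Ackr3 in cKO CD103+CD11b- DCs, at 0 to 28 per sample.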
